A study of Mus musculus with 6 samples.

Results

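The 3 control arrays of the series describe which transcripts a whole fetal mouse lung holds at E18.5, shortly before birth. They are the 3 samples titled as controls, of 6 samples in all, and no comparison with the Scap-deleted samples is made here. On them 18193 genes were described, each by the brightest of its probe sets, a probe set being a group of short DNA probes on the array that reads the same transcript. The controls come from mice of mixed FVB/N and B6 ancestry. Their genotype label names the deletion of Scap from respiratory epithelial cells and then marks these samples as control. Which alleles or transgenes the controls carry, what would drive a recombinase, the sex of the fetuses, and whether an array stands for a fetus of its own or a pool are not given in the sources used here. Spread between arrays may therefore be technical in part.

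Before birth the mouse lung passes from a branching tube into a gas-exchanging organ. Its distal epithelium matures into type II cells, which make and secrete surfactant, the lipid and protein film that keeps air spaces open, and flat type I cells, which cover most of the exchange surface. Around them capillaries spread, fibroblasts lay down elastin and basement membrane, and the airways acquire secretory club cells and multiciliated cells.

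All values are the deposited linear signal, whose scale is arbitrary: the trimmed mean, calculated on the first deposited array only, was 1500, and the median gene read 963. A gene's percentile is its place among all 18193 genes by mean log2 signal over the 3 arrays, 100 being the brightest. Probe sets differ in how strongly they bind, so a rank orders signals on these arrays and not amounts of RNA. In whole lung, fewer cells of a type and less RNA per cell cannot be told apart. For want of detection calls, a reference brightness was taken from 118 genes of odour and taste receptors, hair keratin-associated proteins and lens crystallins, whose symbols begin Olfr, Vmn, Tas2r, Krtap or Cryg. Their signals ran from 2.58 to 694 with a median of 57.2, and their 95th percentile, 273, was the reference. Of all genes, 12541 (68.9%) read above it.

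The 3 arrays gave similar orders of genes. Across all genes, which are not independent replicates, the Pearson correlation of log2 signal was 0.954 for controls 1 and 2 and 0.950 for both pairs with control 3, and Spearman's rho lay between 0.977 and 0.981. The median SD of log2 signal was 0.15 for genes above the reference and 0.69 for those at or below it, so the order of dim genes is poorly fixed. The 100 brightest genes held 12.1%, 11.2% and 12.3% of the summed signal on controls 1 to 3, a mean of 11.9% ± 0.595 (SD, n = 3). With so few arrays, every value that follows has limited precision.

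The 30 brightest genes mixed the machinery of every growing cell with the products of lung epithelium. Of the 49 ribosomal protein genes measured, 33 stood among the 100 brightest genes, and their median percentile was 99.7. Rps29, a small-subunit ribosomal protein, led all genes with signals of 110510, 101398 and 109387 on controls 1 to 3. Eef1a1, which brings aminoacyl-tRNA to the ribosome, came second, and the actins Actb and Actg1 and the actin-binding thymosins Tmsb4x and Tmsb10 were also among the 30. The lung's own genes in this group were Sftpc at rank 4, Lyz1 (lysozyme), Ager at rank 19, Scgb1a1 at rank 21 and Scgb3a2 at rank 22. The place of Lyz1 rests on probe sets that may read several transcripts, since its dimmest probe set read only 388, 953 and 1003. Scd2, a fatty acid desaturase, Meg3, an imprinted non-coding RNA, and the matrix genes Col4a1 and Sparc were among the 30 as well.

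**Figure D1:**
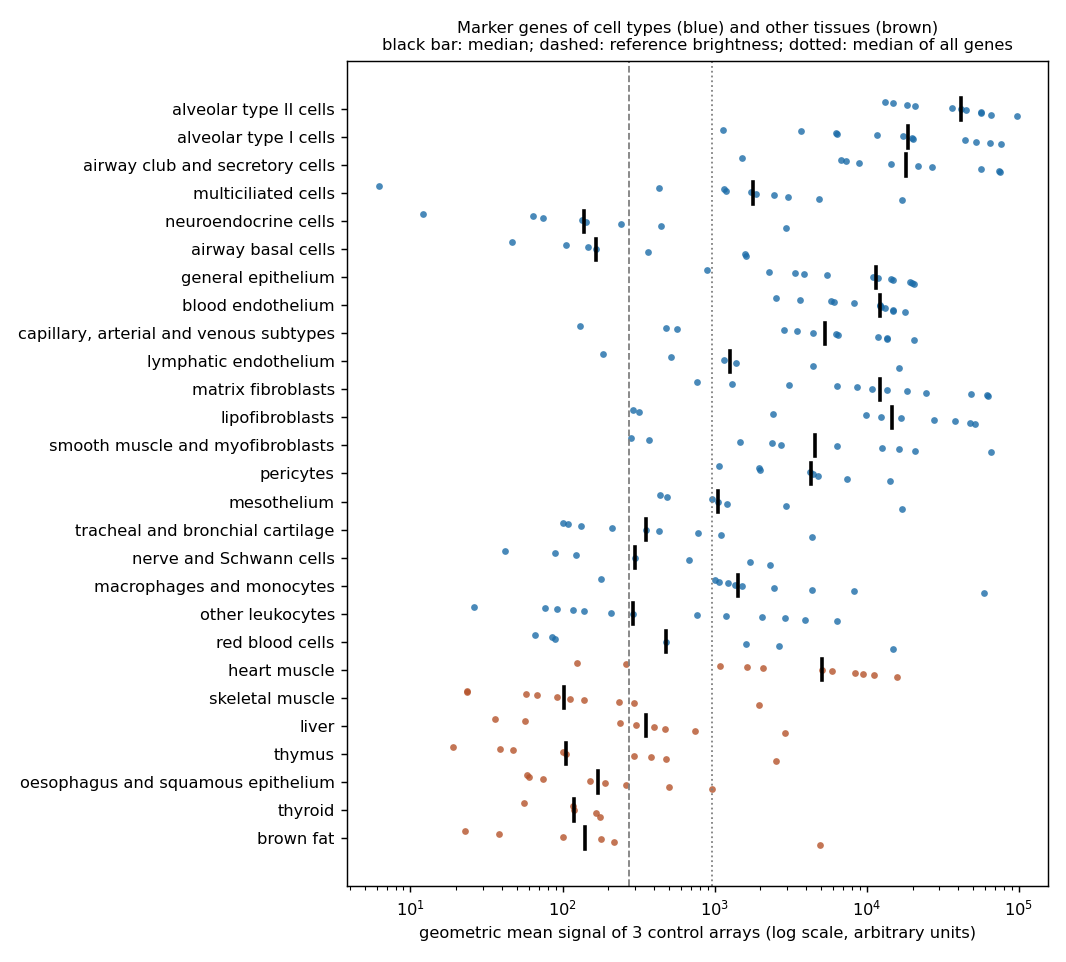
Each point is a measured marker gene, placed by the geometric mean of its signal on the 3 control arrays (log axis, arbitrary units), in a row for each cell type (blue) or other tissue (brown). Black bars mark list medians, the dashed line the reference of 273 and the dotted line the median gene. Type II, type I, club, endothelial and fibroblast markers sit at the bright end, while the medians of neuroendocrine, basal, thyroid and skeletal muscle markers lie below the reference, with single members such as Ddc, Krt15, Dlk2 and Ckm well above it.

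The 6 genes used to check the tissue label were all bright. Their percentiles were 95.7 for Cdh5 of endothelium, 98.6 for Col1a1 of fibroblasts, 99.6 for Hopx and 99.9 for Ager of type I cells, and 99.9 for Scgb1a1 of club cells, and Sftpc of type II cells stood at rank 4. The lists of cell type markers were read by the same yardstick: how many measured members lay above the reference, against 68.9% of all genes, and their median percentile, which is 50 over all genes by construction.

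Type II cell markers had the highest median percentile of the cell type lists, though with the mean of a gene's probe sets club cell markers came above them (98.9 against 98.7). All 11 measured members read above the reference, with a median percentile of 99.4, and 5 stood among the 100 brightest genes. Sftpc, the hydrophobic surfactant protein made by type II cells alone in the lung, read 106271, 80060 and 105989 on controls 1 to 3. Control 2 was the low array for it and the other two lay together. Sftpb, the surfactant protein without which newborn mice cannot breathe, read 56347, 49105 and 65749. The collectins Sftpa1 (39988, 36559 and 48755) and Sftpd (34724, 29731 and 47335), which bind microbes in the airspace, had the same order of arrays, with control 2 lowest and control 3 highest.

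The lipid-handling genes of type II cells were bright as well. Lpcat1, which remodels phosphatidylcholine for surfactant, read 46006, 42258 and 46923, and the phosphate transporter Slc34a2 read 57045, 51470 and 61090. Abca3, the pump that loads lipid into lamellar bodies, read 21471, 21610 and 13322, so that control 3 was the low array for it. Its second probe set was lowest there too (9422, 9605 and 5702), but the third read 1080, 1761 and 1738, lowest on control 1. Etv5, a transcription factor that sustains type II cells, was also lowest on control 3, at 13015, 15982 and 10769. The second Sftpc probe set read only 367, 354 and 451, at percentile 36.1, which shows how far a rank can hang on the probe set.

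Type I cell markers followed closely. All 12 were above the reference with a median percentile of 97.8, and 4 were among the 100 brightest genes. Ager, a receptor held on the basal side of type I cells, read 79381, 68090 and 82615, and Hopx, a homeodomain protein of these cells, read 49886, 47318 and 60031. Pdpn, a surface glycoprotein of type I and lymphatic cells, was steadier at 11510, 12098 and 11423. Aqp5, the water channel of the type I cell membrane, stood lower at 6786, 5835 and 6531, and Igfbp2 lowest of the list at 1270, 979 and 1171. Some of these genes are not peculiar to type I cells, Cav1 and Vegfa among them, since endothelium and other cells also use Cav1.

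The promoters of the alveolar and airway markers are shown because their genes stand at the bright end of the ranks. Each line gives the 120 bases before a RefSeq transcript start, 5′ to 3′ on the gene's strand, from assembly GRCm38.p6. Capitals mark TATAAA on the gene's strand, the core of the TATA box, and CTCAAG or its complement CTTGAG, a form of the site known for the lung factor Nkx2-1. Sftpa1 lies at chr14:41131668-41131787 (+), Sftpb at chr6:72304490-72304609 (+), Ager at chr17:34597730-34597849 (+), the first listed start of Hopx at chr5:77115124-77115243 (-), and Scgb3a1 at chr11:49663475-49663594 (+).
Sftpa1: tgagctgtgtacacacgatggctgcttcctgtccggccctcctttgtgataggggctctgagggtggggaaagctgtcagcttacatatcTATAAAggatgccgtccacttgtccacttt
Sftpb: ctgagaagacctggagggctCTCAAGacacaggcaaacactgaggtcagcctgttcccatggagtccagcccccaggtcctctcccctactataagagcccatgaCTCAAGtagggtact
Ager: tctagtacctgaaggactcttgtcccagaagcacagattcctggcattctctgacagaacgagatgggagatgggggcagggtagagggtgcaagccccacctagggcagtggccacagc
Hopx: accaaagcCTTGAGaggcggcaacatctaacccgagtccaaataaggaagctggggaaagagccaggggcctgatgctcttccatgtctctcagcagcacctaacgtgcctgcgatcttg
Scgb3a1: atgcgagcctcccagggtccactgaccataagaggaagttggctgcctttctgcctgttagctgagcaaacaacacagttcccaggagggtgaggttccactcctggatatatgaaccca

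In Sftpa1 the TATAAA began 30 bases before the start. In Sftpb CTCAAG was found at 100 and at 15 bases before the start, and in Hopx CTTGAG at 112. Neither motif was in these stretches of Ager or Scgb3a1. Over whole lists, TATAAA within 45 to 15 bases before a start was found for 3 of the 8 type II genes with a promoter entry, and for 0 of 11 type I genes, against 2.87% of all 14452 genes with an entry. CTCAAG on either strand of the 250 bases before a start was found for 2 of 8 type II and 3 of 11 type I genes, against 14.7% of all genes. Such shares were not particular to alveolar genes. For CTCAAG other lists ran from 0 of 9 general epithelial genes to 4 of 11 heart muscle and 3 of 7 macrophage and monocyte genes. For TATAAA heart muscle had 0 of 11, but oesophagus and squamous epithelium, a mostly dim list, had 4 of 5, a larger share than type II. These are matches of letters and not bound sites, and with so few genes the shares are a description only. Sftpc, Scgb1a1, Cdh5 and Col1a1 were not matched to an entry.

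Of the airway lists, that of secretory cell genes had the highest median percentile. All 10 club and secretory markers read above the reference, with a median percentile of 97.5. Scgb1a1, the defining secreted protein of club cells, read 67478, 63116 and 100323, and its relative Scgb3a2 read 74290, 63950 and 87297. Cyp2f2, a cytochrome P450 of mature club cells, read 19327, 19725 and 27182. Scgb3a1, which marks secretory cells of the larger airways, read 8186, 4103 and 21191 and spread over 5.16-fold. Control 3 was the high array for each of these genes.

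Multiciliated cell markers were of middle brightness, with 9 of 10 above the reference and a median percentile of 63.2. Foxj1, the factor that switches on motile cilia, read 1923, 1798 and 1883, and the ciliary dynein gene Dnah5 read 453, 377 and 477. Tubb4b was the brightest member at 17107, 16326 and 18041, but this tubulin is used by many cells. Neuroendocrine markers were mostly dim, with 2 of 8 above the reference and a median percentile of 21.2. The granule protein Chga read 128, 103 and 31.7 and Chgb read 193, 125 and 120, all under the reference, while Ddc, an enzyme of amine synthesis found in other tissues too, read 3213, 3277 and 2410. Of the basal cell markers 3 of 7 were above the reference. Krt15 (1530, 1738 and 1589) and Dlk2 (2180, 1473 and 1222) were well above it, though neither is used by basal cells alone. Trp63, which defines basal cells, read 155, 100 and 75.4 and Krt14 read 168, 133 and 140, both under it, and Krt5 was a little above it at 402, 312 and 383.

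The general epithelial list had all 12 members above the reference at a median percentile of 95.3. Among 44 keratins, those of simple epithelium led: Krt8 read 20843, 19102 and 19329, Krt18 read 16174, 14486 and 14199, and Krt7 differed by only 1.01-fold between arrays at 11954, 12005 and 11841. In all 13 keratins lay above the reference, a smaller share than that of all genes. Of 20 claudins, proteins of the tight junction, 11 were above it. The lung form Cldn18 read 21090, 18460 and 22447 and the endothelial Cldn5 read 14537, 12883 and 14903, whereas Cldn4 read 931, 872 and 876.

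Endothelial genes were bright, though not equally so. All 12 blood endothelial markers were above the reference, with a median percentile of 95.7 and a median highest-over-lowest ratio of 1.17, the widest being 1.45 for Vwf. Cdh5, the adhesion molecule of endothelial junctions, read 12206, 12131 and 12115, a spread of 1.01-fold. Its second probe set was less steady, at 2076, 1545 and 1862, with control 2 low. The VEGF receptor Kdr read 13968, 11671 and 14256, with control 2 low. Flt1, the other VEGF receptor on these cells, was the dimmest of the list at 2507, 2183 and 2978.

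Markers of vessel subtypes differed more among themselves. Of 12, 11 were above the reference, at a median percentile of 86.1. Aplnr, the apelin receptor, read 23805, 20549 and 17617, while its ligand Apln read 3518, 3489 and 3458. Ednrb read 12762, 13781 and 14204 and Car4, which marks mature alveolar capillaries, read 2375, 2656 and 3658. The arterial connexins parted: Gja4 read 4501, 3751 and 5167, but Gja5 read 510 on control 1 and 71.2 and 61.1 on the others, so that only control 1 exceeded the reference. Of the lymphatic markers 5 of 6 were above the reference, from Lyve1 at 17262, 16784 and 14899, which macrophages also carry, to Prox1, the factor that sets lymphatic fate, which lay below it at 158, 155 and 257.

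Among the mesenchymal lists, those of matrix fibroblasts and lipofibroblasts had the highest median percentiles. All 12 matrix fibroblast markers were above the reference with a median percentile of 95.6. Col3a1 read 65168, 53790 and 68951, fibronectin (Fn1) 64508, 51418 and 71924, and Col1a1 30841, 21121 and 22662. Control 2 was the lowest array for 9 of the 12, against 42.6% of all genes above the reference. Lum and Vcan were far dimmer, Lum at 862, 429 and 1211 and the brightest of 8 Vcan probe sets at 1307, 1258 and 1343.

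Lipofibroblast markers, from cells that store triglyceride and pass it to type II cells, had all 10 members above the reference at a median percentile of 96.6. Tcf21, a transcription factor of these fibroblasts, read 48030, 42975 and 51641, and Limch1 read 35219, 35197 and 44524. Plin2, the coat protein of lipid droplets, read 11268, 9309 and 9377, and the lipase Lpl read 13787, 10415 and 13288. Apart from Tcf21, the signalling and regulatory members were dim: Fgf10, the growth factor of the distal mesenchyme, read 254, 375 and 339, and Pparg, which drives fat storage, read 259, 241 and 388. Each of them was below the reference on at least 1 array.

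Contractile genes spread widely in brightness. The smooth muscle and myofibroblast list had 10 of 10 above the reference and a median percentile of 81.1. Acta2, smooth muscle actin, read 23255, 19858 and 19566, Tagln read 6908, 5291 and 7116, and Myh11, the myosin of mature smooth muscle, read 3050, 2303 and 1888. Cnn1 read 814, 154 and 414, with control 2 under the reference. The pericyte list had 8 of 8 above it at a median percentile of 82.8, led by Pdgfrb at 13064, 15095 and 14746. Mesothelium, the outer covering of the lung, had 7 of 7 above it. Its surface protein Msln read 17045, 17462 and 16975, while its transcription factor Wt1 read 499, 447 and 382.

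Most genes of elastic fibres and basement membrane were bright. All 26 measured were above the reference, with a median percentile of 94.9 and a lowest of 46.4, for Mfap5, and 15 stood among the 1000 brightest genes. Elastin (Eln) read 72117, 57837 and 67747, and its partners Mfap4 and Fbln5 read 62502, 53524 and 67881 and 22304, 20396 and 31574. Lox, which cross-links elastin and collagen, read 30584, 24160 and 27927. Among basement membrane chains Col4a1 read 76507, 66542 and 75685, and the alveolar chain gene Col4a3 read 3590, 3831 and 3781. Col4a4, which pairs with Col4a3, read 14487, 15065 and 19015. Of all 42 collagens 33 lay above the reference and 4 among the 100 brightest genes, and of 10 laminins 9 lay above it.

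Blood cells left unequal traces. Of the macrophage and monocyte list, 9 of 10 lay above the reference at a median percentile of 58.2. Lyz2 read 64048, 50189 and 62573, but type II cells also make this lysozyme. Csf1r, the receptor that macrophages live by, read 8126, 7785 and 8992, and Adgre1 (F4/80) 1305, 1083 and 1296. Of other leukocyte genes 7 of 13 were above the reference. The neutrophil genes S100a8 and S100a9 read 5902, 5476 and 7850 and 2465, 2891 and 3479, but Camp, of neutrophil granules, read 94.2, 65.5 and 259, below the reference on each array. The T cell genes Cd3e (94.6, 86.6 and 93.1) and Cd3g (106, 85.2 and 51.1) lay below it on each array too.

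Of 7 red cell genes measured, 4 were above the reference, at a median percentile of 38.9. Alas2, the erythroid enzyme that starts haem synthesis, read 16353, 15685 and 12897. The 4 adult globin probe sets that carry several gene symbols each read between 58492 and 128538 and ranked 17 to 27 among all probe sets. No globin gene is named from them. Adult Hba-a1 is counted among the 7 by another probe set, with 1 symbol. It read 35.2, 145 and 124, under the reference on each array, so the count and median do not reflect the bright globin probe sets. The embryonic globin Hbb-bh1 read 31.3, 239 and 37.6, under the reference on each array, and Hbb-y read 1388, 2002 and 1517. The erythroid factor Klf1 (64.2, 49.6 and 227) was also under it.

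The regulators of lung identity were present at very different brightness. Of 20 epithelial transcription factors 18 were above the reference, at a median percentile of 84.5. Nkx2-1, the factor that defines lung epithelium from its first appearance, read 1936, 1386 and 1960, at percentile 62.4. Foxa1 and Foxa2, which open chromatin with it, read 7983, 8194 and 10082 and 4042, 3979 and 4149. Cebpa, which drives type II maturation, read 12452, 11416 and 14243. Sox9, of the distal tips of the branching epithelium, and Sox2, of the airways, read 968, 998 and 1414 and 1042, 1387 and 1130. Etv4 read 215, 246 and 191, under the reference on each array, in contrast to its relative Etv5.

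Of 18 mesenchymal and endothelial transcription factors 17 lay above the reference, at a median percentile of 78.5. Tbx4 read 17997, 15851 and 18236 and Tbx5, with which it acts in lung mesenchyme, 3483, 3443 and 2799. Foxf1, a target of hedgehog signals needed for lung vessels, read 11968, 12364 and 10451. Twist1 was the only member under the reference, at 12.1, 40.5 and 3.8.

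Hox genes, which set position along the body axis, showed an ordered pattern. Of 33 measured, 11 lay above the reference, a share of 33.3% against 68.9% of all genes. These were 10 of 15 genes of paralog groups 1 to 6, the anterior groups, and 1 of 18 genes of groups 7 to 13. Hoxa5, whose loss in mice leaves the lung immature at birth, was the brightest at 8811, 8901 and 9523. Hoxb3 read 3454, 3742 and 3434, Hoxb2 2769, 2627 and 2623, Hoxb5 1824, 1784 and 1710 and Hoxa3 1313, 1289 and 1321. In the C and D clusters the only genes above the reference were Hoxc6 at 301, 444 and 487 and Hoxd8 at 292, 242 and 362, and the latter was under it on control 2. The count for groups 7 to 13 was 0 with the mean of a gene's probe sets and 2 with a lower reference, the 90th percentile of the reference genes.

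**Figure D2:**
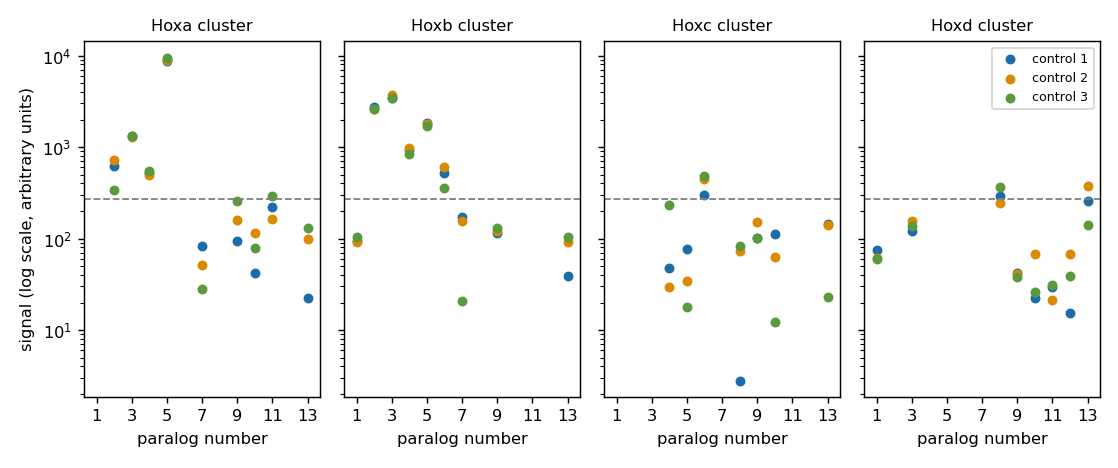
Signal of each measured Hox gene on control arrays 1, 2 and 3 (log axis, arbitrary units) against its paralog number, in a panel for each cluster, with the reference brightness dashed. By mean log2 signal 10 of 15 genes of groups 1 to 6 lie above the reference, and of groups 7 to 13 Hoxd8 alone.

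Signals between epithelium and mesenchyme were read as ligands and receptors. All 21 receptors and receptor partners of the FGF, hedgehog, WNT, BMP and VEGF pathways were above the reference, with a median percentile of 87.4, and 18 of 21 ligands, with a median of 61.6. Shh, the hedgehog ligand of the epithelium, read 20040, 21180 and 21032. Its receptor and target Ptch1 read 15445, 16023 and 17389, and the hedgehog-binding Hhip read 12082, 12541 and 12987. The arrays differed by at most 1.13-fold for each of these 3 genes.

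Among FGF genes Fgfr2, the epithelial receptor for Fgf7 and Fgf10, read 15504, 14330 and 14824. Fgf7 read 2044, 2312 and 1948, Fgf18 read 847, 939 and 819, and Fgf9 read 286, 408 and 158, on both sides of the reference. Vegfa, which type I cells send to capillaries, read 18840, 19869 and 20815. Bmp4, of the distal tips, read 6159, 6142 and 7714 and its receptor Bmpr2 read 14845, 15883 and 18244. Wnt2 of the mesenchyme read 3090, 2658 and 4592 and Wnt7b of the epithelium 1668, 1910 and 1166, with control 3 high for the former and low for the latter. In the PDGF, TGF-beta and retinoid list 16 of 20 lay above the reference. Pdgfa, the epithelial signal to elastin-making cells, read 5807, 5510 and 5678, and its receptor Pdgfra read 20468, 16115 and 18615.

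Imprinted growth genes, expressed in at least some tissues or transcripts from the maternal or the paternal copy alone and most active in fetal tissue, stood high in rank. The signals here do not tell the copies apart. Of 19 measured, 15 were above the reference and 5 among the 100 brightest genes, with a median percentile of 95.3 against 50 for all genes. Meg3, the maternally expressed non-coding RNA of the Dlk1 domain, read 83346, 78350 and 97537 at rank 8, and Dlk1, the paternally expressed gene of the same domain, read 64662, 57408 and 65599. The 11 Meg3 probe sets differed widely. The next brightest read 86813, 81821 and 82829, but the dimmest read 1326, 1032 and 1092, at percentile 53.5. Gnas read 66975, 57851 and 63668, and Plagl1, which encodes a regulator of other imprinted genes, 51590, 49008 and 52127. Igf2, the fetal growth factor, read 18718, 13704 and 17023, and Igf2r, the receptor that removes it, 11369, 12079 and 11242. Peg10 (99.4, 113 and 146) and Phlda2 (240, 171 and 198), best known from placenta, were below the reference on each array.

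The first listed start of Meg3, at chr12:109540876-109540995 (+) of GRCm38.p6, carried TATAAA 25 bases upstream, shown in capitals because it was the top-ranked non-coding gene.
Meg3: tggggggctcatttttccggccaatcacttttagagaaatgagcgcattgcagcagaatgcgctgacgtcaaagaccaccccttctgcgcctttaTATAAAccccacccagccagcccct

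Genes that move salt and water, by which the fetal lung first secretes and then absorbs its liquid, were bright in the main. Of 14, 13 were above the reference, at a median percentile of 87.7. The secretory side included Slc12a2, the sodium, potassium and chloride cotransporter, at 18152, 19322 and 21650, the chloride channel Ano1 at 14454, 12710 and 13465, and Cftr at 2046, 1970 and 1938. The absorptive side was the epithelial sodium channel, whose subunits Scnn1a, Scnn1b and Scnn1g read 8864, 9381 and 10414, 1754, 2125 and 2830, and 3990, 4401 and 5684. Each subunit was lowest on control 1 and highest on control 3.

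Of 13 genes of glucocorticoid and hormone response, 10 were above the reference at a median percentile of 86.6. The receptor Nr3c1, needed for lung maturation, read 16279, 14933 and 16526. Hsd11b1, which regenerates active glucocorticoid, read 17604, 15266 and 17377, whereas Hsd11b2, which inactivates it, read 327, 512 and 263. The glucocorticoid targets Tsc22d3, Klf9 and Fkbp5 read 10824, 9981 and 11567, 16801, 15384 and 18023, and 4705, 4726 and 4329. Their spread was within 1.17-fold.

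Tissues next to the lung were read as a check on what the samples held. Of the heart muscle list 9 of 11 were above the reference at a median percentile of 85.7, and its summed signal was 63476, 54119 and 66753. Actc1 read 16534, 12450 and 18919, Myh6 read 10441, 9634 and 8325, and Myl7 read 11735, 9985 and 11848. Of the 2 members under the reference, Myl2, of ventricles, read 320, 215 and 262, and Nppa, an atrial hormone gene, read 350, 95.8 and 56.7. Where these transcripts came from, which include the muscle sleeve around pulmonary veins as well as heart, was not tested. Skeletal muscle (2 of 10), thyroid (0 of 5) and oesophagus (2 of 8) were mostly under the reference, with median percentiles of 17.2, 19.2 and 24.3. Thymus had 4 of 9 above it, but Rag1 (98.1, 8.7 and 67.2), Rag2 (13.9, 18.0 and 27.5) and Cd4 (45.5, 58.1 and 39.8) were far below. In the brown fat list only Prdm16 exceeded the reference.

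Liver genes had the widest spread between arrays of any list, with a median highest-over-lowest ratio of 5.45 among members above the reference, and of 4.45 once signals under the reference were raised to it. Of 8 measured, 5 were above the reference, and 4 of these 5 spread past 2-fold, against 465 of 12541 genes (3.71%). With low signals raised to the reference, 3 of the 5 did, against 345 genes (2.75%). Afp, the fetal serum protein of liver and yolk sac, read 693, 6700 and 22.2. Its value on control 3 was under the reference, so the range is given as at least 24.6-fold, the reference standing in for the low array, and on that footing it was still the widest of the genes above the reference. Alb, serum albumin, read 1800, 1048 and 219, and Apoa1, of high-density lipoprotein, 223, 1213 and 236, with at least 6.60-fold and 4.45-fold between arrays. Control 2 was the high array for Afp and Apoa1, control 1 for Alb, and control 3 the low array for Afp and Alb. Apoa1 exceeded the reference on control 2 alone, so it counts among the 5 through its high array. Its other probe sets were also highest on control 2, and were lowest on control 3, at 43.5, 15.1 and 15.2. Their values on controls 1 and 3 were under the reference. The next 3 Afp probe sets had the same order of arrays as the brightest, and the dimmest stayed between 11.8 and 23.3. Ahsg (158, 120 and 9.80) and Fgb (160, 31.5 and 9.30) lay below the reference on each array, and Cyp2e1, which lung itself expresses, varied by 1.43-fold. The summed signal of the list was 7307, 12351 and 3611. Whether this came from tissue carried over or from expression in lung was not tested.

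The promoters of Alb at chr5:90460750-90460869 (+) and Afp at chr5:90490594-90490713 (+), neighbours on chromosome 5 and both variable here, are given for comparison.
Alb: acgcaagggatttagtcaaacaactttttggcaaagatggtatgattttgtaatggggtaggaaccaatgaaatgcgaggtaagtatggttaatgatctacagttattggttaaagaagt
Afp: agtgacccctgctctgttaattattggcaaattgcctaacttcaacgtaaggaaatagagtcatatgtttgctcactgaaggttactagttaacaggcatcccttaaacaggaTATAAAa
In Afp the capitals mark TATAAA 7 bases before the listed start, outside the window counted above, and the Alb stretch held none.

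**Figure D3:**
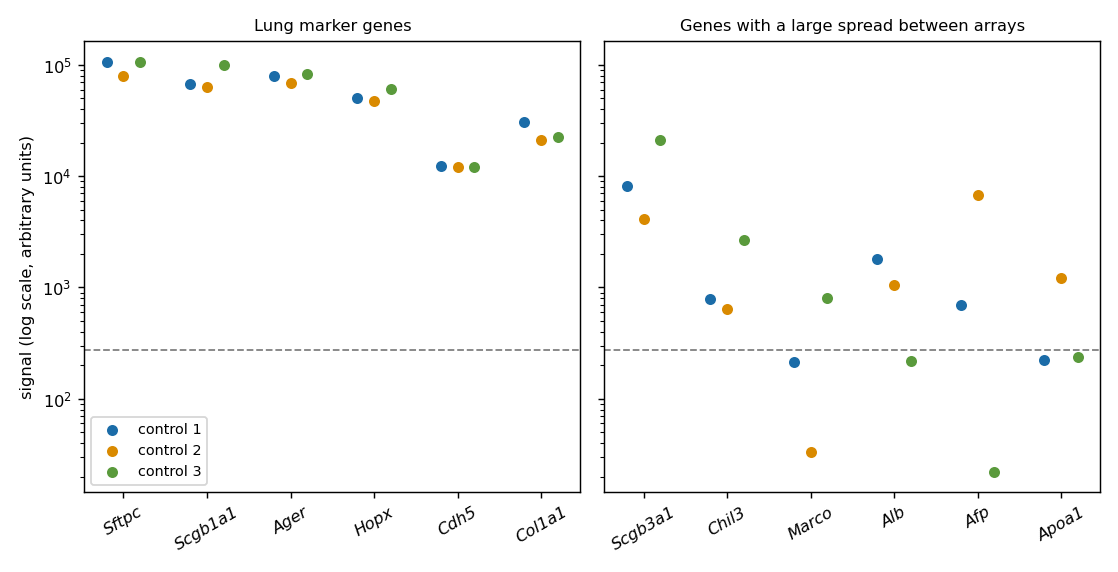
Signal on control arrays 1, 2 and 3 (log axis, arbitrary units; reference dashed) for the 6 lung markers, left, and 6 genes of large spread, right. By their brightest probe sets the markers spread by 1.01-fold (Cdh5) to 1.59-fold (Scgb1a1). Afp runs from 22.2 on control 3 to 6700 on control 2, and Scgb3a1, Chil3 and Marco are highest on control 3.

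The sex-linked genes gave the same picture on the 3 arrays, with Xist far above the reference and the Y-linked genes under it. Xist, made from the inactive X chromosome of female cells, read 45160, 43814 and 34385. Its dimmer probe sets varied more, at 14341, 21448 and 9880 and at 1748, 2843 and 1399, with control 2 highest. The Y-linked Uty, Kdm5d and Eif2s3y lay under the reference on each array, the highest value being 204 for Kdm5d on control 2.

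Most genes above the reference varied little. Their median highest-over-lowest ratio was 1.22 and the 90th percentile 1.65, and 465 (3.71%) exceeded 2-fold. On controls 1 to 3, 115, 114 and 174 genes lay more than 2-fold from the mean of the other arrays. Control 2 was the lowest array for 42.6% of genes above the reference, at a median log2 difference of -0.05, and for ribosomal proteins this was -0.14. Control 3 was the highest array for 41.1% of genes and the lowest for 31.7%.

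The club, type II and cell cycle lists were read against those shares. All 10 club and secretory genes were highest there, with a median log2 difference of 0.43 from the other arrays, and 8 of 11 type II genes were, with a median of 0.22, Abca3 and Etv5 being lowest. Of the 10 lipofibroblast genes 7 were highest there, with a median of 0.25, and of the 7 other leukocyte genes above the reference 5 were, with a median of 0.38 and none lowest. The housekeeping list leaned the same way, with 6 of 9 genes highest on control 3, 1 lowest and a median of 0.12. Among the 30 brightest genes Eef1a1 (0.22) and Actb (0.24) reached the type II median, while Rps4x (-0.02) and Rps20 (-0.03) did not. The type II and lipofibroblast shifts are thus not particular to those lists. Of the 19 cell cycle genes 16 were lowest on control 3, with a median of -0.51. Mki67, a marker of dividing cells, read 6208, 6078 and 4646, and Top2a, which untangles replicated DNA, 4526, 3985 and 2628. Birc5 read 1435, 1618 and 1075 and Tyms 469, 457 and 272. Pcna, Mcm6 and Ccne1 were instead highest on control 3. The epithelial sodium channel subunits and Car4, named above, were also highest on this array. The subunits belong to the fluid and ion transport list, with 13 genes above the reference. Of these 7 were highest on control 3 and 1 lowest there, with a median of 0.19, and 6 were highest on control 1. The vessel subtype list that holds Car4 was split, however. Of its 11 genes above the reference 5 were highest on control 3 and 5 lowest, with a median of 0.10. Of the 12 type I genes 6 were highest there and 4 lowest, with a median of 0.09. With quantile normalization, which gives each array the same distribution, the club, type II and cell cycle counts stayed at 10, 8 and 16 and the medians were 0.37, 0.18 and -0.48. With 1 array on that side no test was made, and the labels give no finer age, weight or scan batch to set beside it.

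**Figure D4:**
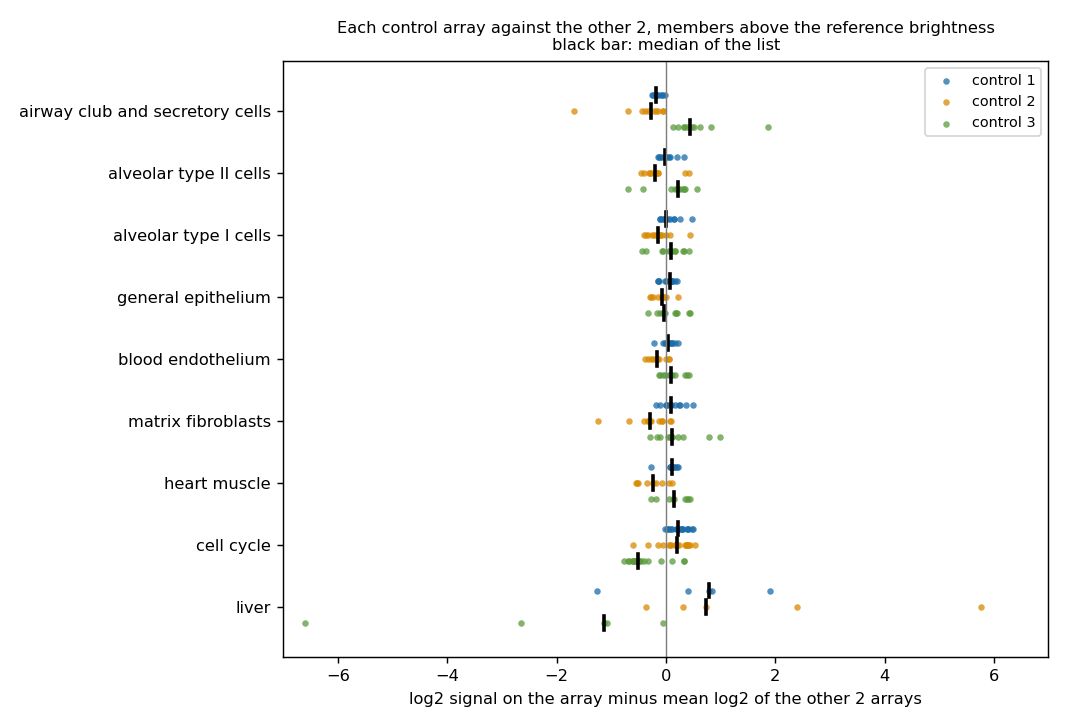
Log2 signal on an array minus the mean log2 of the other 2, for the members above the reference of 9 lists; each point is a gene, colours are the arrays and black bars the list medians. On control 3 the median of club genes is 0.43 and that of cell cycle genes -0.51, and liver genes scatter most.

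Single genes that differed most between arrays were mixed in function. Efhd2, a calcium-binding protein, read 10049, 11173 and 1800, and its second probe set read 4756, 4393 and 2858, a smaller fall on the same array. Crh, the hormone that starts the stress axis, read 1494, 2538 and 320. Erdr1 read 18280, 3242 and 16133, with control 2 low, while its second probe set read 408, 306 and 188 and was lowest on control 3. Chil3, a chitinase-like protein of alveolar macrophages, read 794, 643 and 2646, and Marco, a scavenger receptor of the same cells, read 213, 33.3 and 803. For both the high array was control 3. Marco exceeded the reference there alone, and its mean log2 signal lay below it. The macrophage and monocyte list did not share this order. Of its 9 genes above the reference 2 were highest on control 3, against 41.1% of all genes, and 5 on control 1. Their median log2 difference on control 3 was 0.05.

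Promoter sequence was set beside signal rank. Over the 250 bases before the start, the median CpG ratio, the number of CG pairs over that expected from the base content, was 0.62 for all 14452 genes with an entry, 0.67 for the 100 brightest, 0.76 for the next 900 genes by rank, 0.71 for the remaining genes above the reference and 0.31 for genes at or below the reference. Ribosomal protein genes had 0.85, and club cell genes, bright as they were, 0.17. A gene counted as holding a motif if any of its listed starts did. TATAAA in the window was found in 3.75% of the 100 brightest, 3.42% of the next 900, 1.56% of the remaining genes above the reference and 5.58% of those at or below it. TGTTTAC, a forkhead motif sought on both strands, was found in 3.04% of all genes, 3.75% of the 100 brightest and 3.78% of those at or below the reference. The 100 brightest had 80 genes with an entry, so a share of 3.75% is 3 genes. The values of this band depend on ribosomal protein genes. Without them 51 of 67 genes had an entry, with TATAAA in 3 (5.88%) and a median CpG ratio of 0.59.

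**Figure D5:**
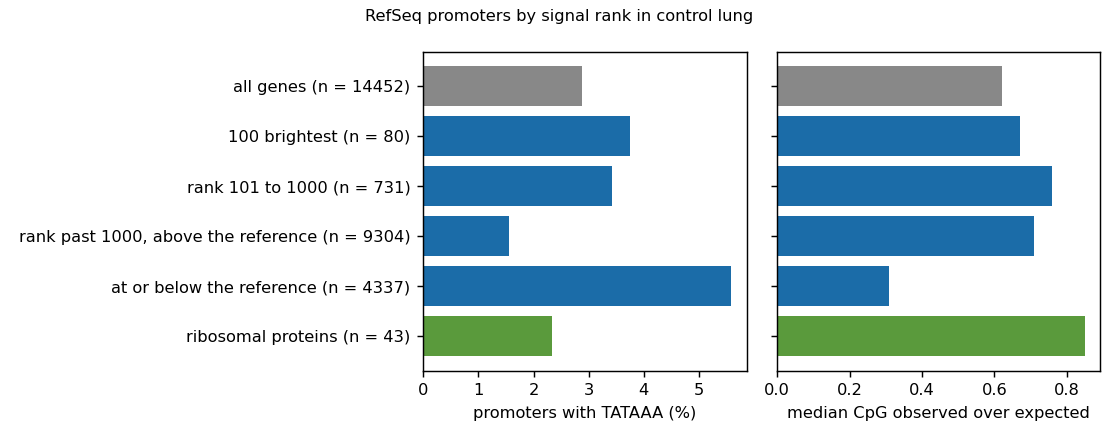
Left, percent of RefSeq promoters with TATAAA within 45 to 15 bases before the start; right, median ratio of observed to expected CpG over 250 bases, by band of signal rank and for ribosomal protein genes, with the number of genes beside each bar. Of the sets drawn, genes at or below the reference have the highest TATAAA share, 5.58%, and the lowest CpG ratio, 0.31.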

How the data were processed

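Per the labels, total RNA of whole lung, isolated with RNeasy kits and biotin-labelled, was hybridised to Affymetrix MOE430 V2 arrays. The authors deposited a table of intensity, a linear signal for 45101 probe sets. RMA is named per the submitters' processing notes, yet the values are linear and not quantile normalized. The first deposited array, the only one for which it was calculated, had a trimmed mean of 1500 (2% off each end). Background correction, software and genome build are not given in the sources used here. Column medians were 509.2, 530.5 and 490.9 for controls 1 to 3; values have no gene-wise centring or ratio direction.

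The 64 control probe sets were left out. Of 45037 others, the platform annotation gave 34945 a single symbol, 932 several and 9160 none. The brightest probe set by mean log2 over the 3 arrays stood for each gene, without pseudocount; 9010 genes had more than 1. Of 531 memberships in 41 lists, 494 were measured. Probe sets of 1 gene differed by a median of 12.0 percentile points between brightest and next brightest. Promoters came from RefSeq, GRCm38.p6, matched by symbol.

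No test between groups was made, since only 1 group is described. Named genes are list members, the 30 brightest, the 10 of largest spread and, per array and direction, the 5 farthest from the other arrays; genes of the collagen, keratin and claudin families outside the lists (here Cldn5) were named after their values were seen. The members and lists were chosen with earlier results of these data known. The calculation of spread was tested on simulated data with known shifts. Python 3.11.15, pandas 2.3.3, numpy 2.4.6 and matplotlib 3.10.9 were used.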

Additional observations from a re-analysis of the deposited data

How the results depend on the processing

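Leaving out 1 array changed the 465 genes past 2-fold to between 119 (without control 3) and 223 (without control 2), fewer arrays giving a narrower range by construction; it was 345 with signals under the reference raised to it, 3963 without a filter on dim genes and 2058 at 1.5-fold. With the mean of a gene's probe sets the 100 brightest genes held 14.8% of the signal, and list medians were 98.7 for type II, 98.9 for club, 96.0 for endothelium and 94.7 for fibroblasts. Without probe sets marked _x, _s or _a they were 99.7, 96.6, 94.3 and 94.8, and 98.5 for type I; 6 of 6 club genes were then highest on control 3. Ranked among genes above the reference alone, the medians were 99.2 (type II), 96.8 (type I), 96.4 (club), 93.8 (endothelium) and 93.7 (fibroblasts). Hox genes of groups 7 to 13 above the reference numbered 0 with mean probe sets and 2 with the 90th percentile reference. The control 3 and Hox alternatives and the raising of low signals were chosen after seeing the data. The cause of these shifts was not tested where the construction does not give it. Of 175 medians of 22 other lists, 52 moved by more than the SD over arrays, 0 of them under quantile normalization. Of 15 lists above the middle of all genes, the lymphatic list alone crossed it, at 40.4 with mean probe sets, when ranks were taken among all genes. Ranked among genes above the reference alone, 4 fell below their middle: multiciliated (48.1), macrophages and monocytes (40.9), lymphatic (38.3) and mesothelium (29.8); 3 rose above it by losing their dim members. No paired analysis was possible because only 1 group is described. Dim signals and 3 arrays limit every rank near the reference.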

Other observations

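Cartilage genes of the trachea and bronchi gave a divided picture, with 5 of 9 above the reference and a median percentile of 34.8. Matn4, a matrix protein, read 4877, 4400 and 3844 on controls 1 to 3, and Col9a1 read 410, 578 and 333. Acan, the large proteoglycan of cartilage, read 249, 420 and 420, with control 1 under the reference. Col2a1, the main cartilage collagen, read 96.9, 170 and 138, and Comp read 208, 218 and 204, both below the reference on each array. Nerve and Schwann cell genes had 4 of 7 members above it, at a median percentile of 32.5. Sox10, which defines the neural crest lineage of Schwann cells, read 753, 584 and 704, and the neuronal Stmn2 read 1667, 1469 and 2048, whereas the neuronal filament gene Prph read 128, 107 and 134 and stayed below the reference.

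Genes of iron and haem handling were all above the reference, 7 of 7, at a median percentile of 89.7. Ferritin heavy chain (Fth1) read 53506, 48417 and 56691 and the transferrin receptor Tfrc 4778, 4613 and 4464. Alad, an early enzyme of haem synthesis, read 9093, 9448 and 5442, and Slc25a37, which brings iron into mitochondria of red cell precursors, read 9429, 6550 and 4697. Both were lowest on control 3, as was Alas2, whereas Fech, the last enzyme of the pathway, read 12442, 11290 and 12595 and was highest there. The housekeeping list had 9 of 9 above it at a median percentile of 97.9, from Eef1a1 down to Tbp at 2180, 2236 and 1909.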
